A study of Homo sapiens with 8 samples.

Results

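A set of 10 genes of the dense-core granule pathway was followed across 3 SH-SY5Y lines: the granins CHGA, CHGB, SCG2 and SCG3, the convertase chaperone SCG5, the processing enzymes PCSK1, PCSK2 and CPE, and the secreted cargoes VGF and NPY. They were chosen by gene symbol, and each of the 10 matched 1 row of a table of 47591 genes. SH-SY5Y is an established human neuroblastoma cell line of sympathetic origin. RNA-seq of polyadenylated RNA was used to ask what changes when PRPF40B, which encodes a splicing factor, is depleted. The G2 line (3 libraries) received Cas9 with a guide RNA directed at PRPF40B, the SCR line (3 libraries) received Cas9 with a scrambled guide, and the WT line (2 libraries) was not edited. The knockout lines are colony-derived, grown out after a drug selection, and G2 and SCR cells were grown with puromycin, a treatment not stated for WT. G2 is therefore 1 edited line, and the edited gene and the founding colony cannot be told apart in G2/SCR or G2/WT. G2/WT and SCR/WT also differ in editing and puromycin, which cannot be told apart either. Whether replicates came from separate cultures is not stated beyond their label as biological replicates, so p-values measure the spread between these libraries.

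Dense-core granules store peptides and amines and release them on stimulation. Granins are acidic proteins that aggregate in the trans-Golgi network and help to form the granule, while the convertases PCSK1 and PCSK2 cleave prohormones at pairs of basic residues, CPE trims the exposed basic residues, and SCG5 (7B2) holds proPCSK2 until it can be activated. NPY and VGF are made as precursors and enter the same granules, and in sympathetic neurons NPY is stored with noradrenaline.

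Recovered counts ran from 59804395 to 81080747 per library. Most small recovered counts were multiples of 3, so these totals can overstate the depth. Divided by 3, the totals ran from 1.99e+07 to 2.70e+07. Values are normalized counts, that is counts divided by a size factor of the library and not by gene length. PRPF40B was lower in the G2 libraries (840 to 918 normalized counts) than in the SCR libraries (1669 to 1686) and the WT libraries (1668 and 1972). In G2/SCR it differed by -0.95 on the log2 scale (adjusted p = 7.4e-07 by limma with Benjamini-Hochberg adjustment). The labelled cell type was checked against its markers. All 12 adrenergic neuroblastoma markers passed the filter on low values given below, among them GATA3 and STMN2, but TH, the rate-limiting enzyme of catecholamine synthesis, stood at 0 to 26.5 normalized counts. Markers of the adrenergic and mesenchymal states of neuroblastoma moved with the G2 line: 1 adrenergic marker was higher and 8 lower of 12 in G2/SCR, and 8 of 9 tested mesenchymal markers were higher in both G2 comparisons. The summed mesenchymal level was 241874 to 247646 in G2, 112059 to 119366 in SCR and 82076 to 93921 in WT, and the summed adrenergic level was 268082 to 272792, 352948 to 360154 and 306792 to 313139. VIM made up most of the mesenchymal sum. Without VIM that sum was 29918 to 31117 in G2, 29434 to 31080 in SCR and 27493 to 30142 in WT, so the lines overlapped. The rest was mostly TWIST1, whose mean was lower in G2 (21105) than in SCR (27740) and WT (26687). STMN2 was the largest part of the adrenergic sum. Without STMN2 that sum was 100006 to 110114, 179534 to 190561 and 189058 to 197309, so G2 stayed below both controls. The part of these markers in the results on granule genes was not tested. In bulk RNA, fewer cells that make a transcript and less of it per cell cannot be told apart.

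For CHGA, PCSK1 and VGF the promoter holds the full cAMP response element, TGACGTCA, the site that CREB family factors bind. The RefSeq promoter table (GRCh38.p14, 250 bases before to 50 after each start) held 8 of the 10 genes, not CHGB and SCG2. The element, which reads the same on both strands, was found in 3 of these 8 genes, against 1.85% of 35116 promoters of the same length. That share is per promoter, and PCSK1 and PCSK2 have 2 promoters each. Its first base lay 54 bases before the start of CHGA, 77 before the start of PCSK1 (the first of its 2 promoters) and 79 before the start of VGF. The windows are shown because the 3 genes that share this element had different patterns in G2: CHGA was lower than in both controls, VGF was highest there, and PCSK1 was near the counting floor. They run 5′ to 3′ on the gene's strand with the element in capitals, at chr14:92923066-92923133 (plus strand) for CHGA, chr5:96433288-96433355 (minus strand) for PCSK1 and chr7:101165611-101165678 (minus strand) for VGF.
CHGA: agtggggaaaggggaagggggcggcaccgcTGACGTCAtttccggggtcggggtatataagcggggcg
PCSK1: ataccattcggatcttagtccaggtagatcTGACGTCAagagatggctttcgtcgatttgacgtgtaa
VGF: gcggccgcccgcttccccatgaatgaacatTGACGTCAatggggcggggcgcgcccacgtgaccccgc
A match says only that these letters are present, and binding was not measured. The half-site TGACG, searched on both strands and contained in the full element, occurred in 24.6% of the promoters. Among the genes of the set it occurred in CHGA, SCG3, SCG5, PCSK1, PCSK2, CPE and VGF, and not in NPY.

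CHGA, CHGB and SCG3 fell in the G2 line, while NPY and VGF rose against SCR. Of the 10 genes, 9 passed the filter of a mean of at least 10 normalized counts, all but SCG2. A gene was called when it differed 1.5-fold or more with an unadjusted p no higher than 0.05. In G2/SCR 2 of the 9 were called higher and 4 lower, where 26.9% of all 18947 tested genes were called (15.1% higher and 11.8% lower). In G2/WT, 2 were called higher and 4 lower, where 29.9% of all genes were called (17.7% higher and 12.2% lower). With the adjusted p held to 0.05 or less instead, the same numbers of members were called, where the share of all genes was 25% (G2/SCR) and 28.2% (G2/WT). CHGA, CHGB, SCG3 and PCSK2 were lower in both G2 comparisons, as were 6.43% of all tested genes, and NPY was higher in both, as were 11.3%. PCSK2 passed the filter on the strength of its SCR libraries, so a difference from SCR was part of its being tested. Counting PCSK2 as lower than SCR, here and below, is a description only. For the 9 genes the median log2 fold change stood at -0.87 (G2/SCR) and 0.07 (G2/WT), while the median of all genes stood at -0.01 and 0.00. All 3 G2 libraries lay below all 5 control libraries for CHGA, CHGB, SCG3 and PCSK2 and above them for SCG5, VGF and NPY, so that 7 of the 9 did not overlap the controls, where 42.5% of all tested genes did not. These comparisons share the G2 libraries, so each is given with its own values.

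**Figure D1:**
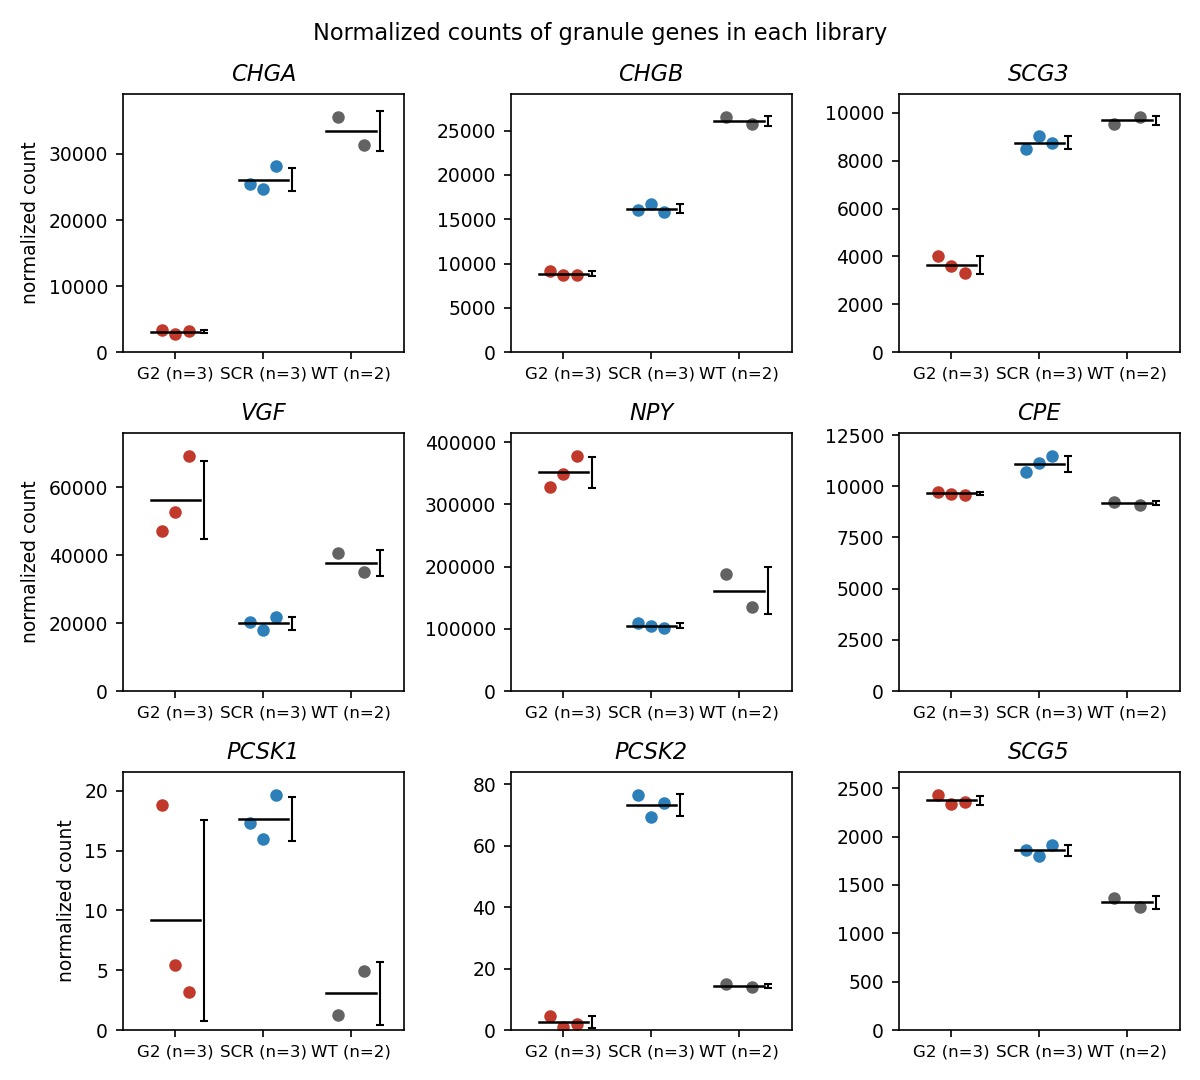
Normalized counts (vertical axes, linear, from 0) of 9 granule genes in each library of the G2, SCR and WT lines; points are libraries, horizontal lines are means and bars are the SD. CHGA, CHGB and SCG3 were lowest in all 3 G2 libraries, and NPY and VGF were highest there.

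Of the genes grouped as granins above, CHGA, CHGB and SCG3 had counts to compare. CHGA (chromogranin A, GSHG0013396, chr14:92923149-92935291 on hg38, plus strand) is the main granin of adrenal and sympathetic granules. It measured 3311, 2818 and 3172 normalized counts in G2, 25507, 24737 and 28146 in SCR, and 35595 and 31295 in WT. No G2 library came near a control library, and WT lay above SCR. The G2 mean was 8.43-fold lower than SCR (log2 fold change -3.08, SE 0.08, adjusted p = 3.3e-11 by limma) and 10.8-fold lower than WT (-3.43, SE 0.08, adjusted p = 2.9e-11). In SCR/WT the difference of -0.36 (adjusted p = 0.0063) was under the 1.5-fold threshold.

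CHGB (chromogranin B, GSHG0026566, chr20:5911508-5925357, plus strand) fell less. Its normalized counts were 9211, 8736 and 8679 in G2, 16015, 16724 and 15842 in SCR, and 26530 and 25712 in WT. The 3 lines did not overlap, with G2 lowest and WT highest. On the log2 scale CHGB changed by -0.87 in G2/SCR (SE 0.05, adjusted p = 3e-08), -1.56 in G2/WT (SE 0.05, adjusted p = 5.8e-10) and -0.69 in SCR/WT (SE 0.05, adjusted p = 3.5e-06). Since CHGA fell more than CHGB, CHGB outnumbered CHGA in G2 and not in the controls: the ratio of CHGB to CHGA within a library, in normalized counts not divided by length, was 2.87 ± 0.198 in G2 (SD, n = 3), 0.622 ± 0.0568 in SCR (SD, n = 3) and 0.783 ± 0.0539 in WT (SD, n = 2).

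SCG3 (secretogranin III, GSHG0013739, chr15:51681347-51721026, plus strand) binds CHGA and cholesterol-rich granule membrane. It measured 4037, 3612 and 3296 normalized counts in G2, 8511, 9036 and 8744 in SCR, and 9557 and 9831 in WT. Every G2 library lay below every control library, and SCR lay below WT, as the plot of normalized counts by library shows. SCG3 fell on the log2 scale with a change of -1.27 in G2/SCR (SE 0.07, adjusted p = 2.4e-08) and -1.41 in G2/WT (SE 0.08, adjusted p = 2.8e-08), and SCR/WT was not called (-0.15, 95% CI -0.32 to 0.02, adjusted p = 0.17).

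SCG2 (secretogranin II, GSHG0026353, chr2:223596940-223602361, minus strand), the precursor of secretoneurin, was listed at 0 in all 8 libraries. That 0 says nothing of its expression, because most minus-strand genes around it are listed at or near 0 as well. Of the protein-coding genes within 10 Mb, 56 of 60 on the minus strand (93.3%) had a mean under 10 and 44 of them were at 0 in every library, against 19 of 81 (23.5%) on the plus strand. Elsewhere in the genome the shares were 26.6% on the minus and 25.1% on the plus strand. NCL and CUL3, which nearly every cell uses, lie in this window and had means of 0.466 and 0. PTPRN, a granule membrane protein, and NPPC, a natriuretic peptide precursor, were at 0 in the same stretch; no level is drawn from them.

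**Figure D2:**
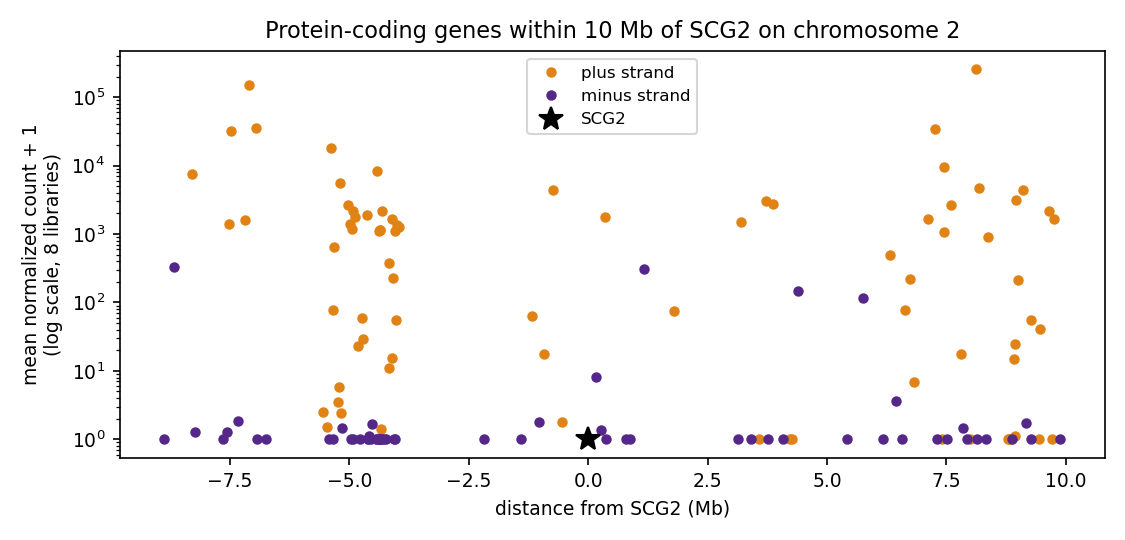
Mean normalized count plus 1 over 8 libraries (vertical axis, log scale) of protein-coding genes within 10 Mb of SCG2, against their distance from SCG2 in Mb (horizontal axis). Minus-strand genes (purple) lie mostly at the bottom, 56 of 60 under a mean of 10, while 19 of 81 plus-strand genes (orange) do.

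Both convertases had low counts, and PCSK2 fell in G2. PCSK2 (GSHG0026614, chr20:17226107-17484578, plus strand), which makes many neuropeptides from their precursors, had 4.70, 1.09 and 2.15 normalized counts in G2, 76.5, 69.4 and 74.1 in SCR, and 14.9 and 13.9 in WT. The G2 libraries were all at the floor of 9 recovered counts, about 3 fragments, and held no more than 5 recovered counts each. Against that floor PCSK2 was at least 7.86-fold lower in G2 than in SCR (adjusted p = 8.9e-06 by limma) and at least 1.54-fold lower than in WT (adjusted p = 0.0043). PCSK2 passed the filter on the strength of its SCR libraries (mean 73.4, against 2.65 in G2 and 14.4 in WT). A difference from SCR was thus part of being tested, and its calls against SCR are a description only. SCR exceeded WT 5.09-fold (log2 fold change 2.27, SE 0.53, adjusted p = 0.0062); the control lines did not overlap.

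PCSK1 (GSHG0035611, chr5:96390333-96433248, minus strand), the convertase of early processing steps, was low in every line. Its normalized counts were 18.8, 5.47 and 3.22 in G2, 17.3, 15.95 and 19.6 in SCR, and 1.24 and 4.96 in WT. G2 replicate 1 lay among the SCR libraries and the other 2 near WT. PCSK1 was not called in G2/SCR (log2 fold change -1.19, 95% CI -2.79 to 0.41, adjusted p = 0.20), but without G2 replicate 1 the change was -1.83 and called, so that library decides the result. It was not called in G2/WT (adjusted p = 0.26). In SCR/WT it was at least 1.76-fold higher in SCR, and called (adjusted p = 0.043), but not without WT replicate 1. PCSK1 passed the filter, with a mean of 10.8, only through its SCR libraries (mean 17.7, against 9.17 in G2 and 3.10 in WT), so a difference from SCR was part of being tested and its call is a description only.

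SCG5 (GSHG0048008, chr15:32641676-32697097, plus strand), the chaperone of PCSK2, was highest in G2. It measured 2429, 2336 and 2361 normalized counts in G2, 1863, 1802 and 1909 in SCR, and 1368 and 1274 in WT. The lines did not overlap, with WT lowest. The difference on the log2 scale came to 0.35 in G2/SCR (SE 0.06, adjusted p = 0.00045), under the 1.5-fold threshold, and 0.85 in G2/WT (SE 0.07, adjusted p = 8e-07), which was called. The change in SCR/WT was 0.49 (SE 0.07, adjusted p = 0.00021), also under the threshold.

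CPE (GSHG0033075, chr4:165378934-165498547, plus strand), the carboxypeptidase that acts after the convertases, differed less than 1.5-fold between any lines. It measured 9725, 9629 and 9592 normalized counts in G2, 10686, 11134 and 11476 in SCR, and 9233 and 9095 in WT. G2 lay between the controls. Its log2 fold changes were -0.20 (95% CI -0.31 to -0.10) in G2/SCR, 0.07 (95% CI -0.04 to 0.19) in G2/WT and 0.28 (95% CI 0.16 to 0.39) in SCR/WT.

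NPY (GSHG0039272, chr7:24284188-24291862, plus strand), a sympathetic cotransmitter, was the most abundant of the 10 transcripts in every line and rose in G2. Its normalized counts were 328310, 348569 and 377530 in G2, 110076, 103897 and 101662 in SCR, and 188063 and 134947 in WT. Every G2 library exceeded every control library, and SCR was lowest. NPY rose by 1.74 on the log2 scale in G2/SCR (SE 0.10, adjusted p = 3.6e-08) and 1.14 in G2/WT (SE 0.11, adjusted p = 4.4e-06). SCR/WT was -0.60 (SE 0.11, adjusted p = 0.0015), a call lost without WT replicate 1, where the change was -0.36, or without SCR replicate 3, where it was -0.58. NPY made up 0.539% ± 0.0375 of all normalized counts in G2 (SD, n = 3), 0.172% ± 0.00695 in SCR (SD, n = 3) and 0.216% ± 0.0384 in WT (SD, n = 2).

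VGF (GSHG0040920, minus strand), a neurotrophin-inducible precursor, was also highest in G2. It measured 47096, 52732 and 69164 normalized counts in G2, 20255, 18026 and 21802 in SCR, and 40514 and 34949 in WT. The 3 lines did not overlap, with SCR lowest. VGF changed on the log2 scale by 1.48 in G2/SCR (SE 0.12, adjusted p = 8.2e-07) and -0.91 in SCR/WT (SE 0.13, adjusted p = 0.00032). In G2/WT it was 0.56 (SE 0.13, adjusted p = 0.0039), just under the threshold, which it passed without G2 replicate 1 (0.68), without G2 replicate 2 (0.60) or without WT replicate 1 (0.67). These values carry a limit: the entry spans chr7:100791369-101165595, 374 kb, where GENCODE gives VGF 3.06 kb. Among the entries inside that span was EPHB4, a receptor tyrosine kinase on the same strand, which had means of 7362 in G2, 1834 in SCR and 2455 in WT. Which transcripts the VGF count holds was not tested.

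**Figure D3:**
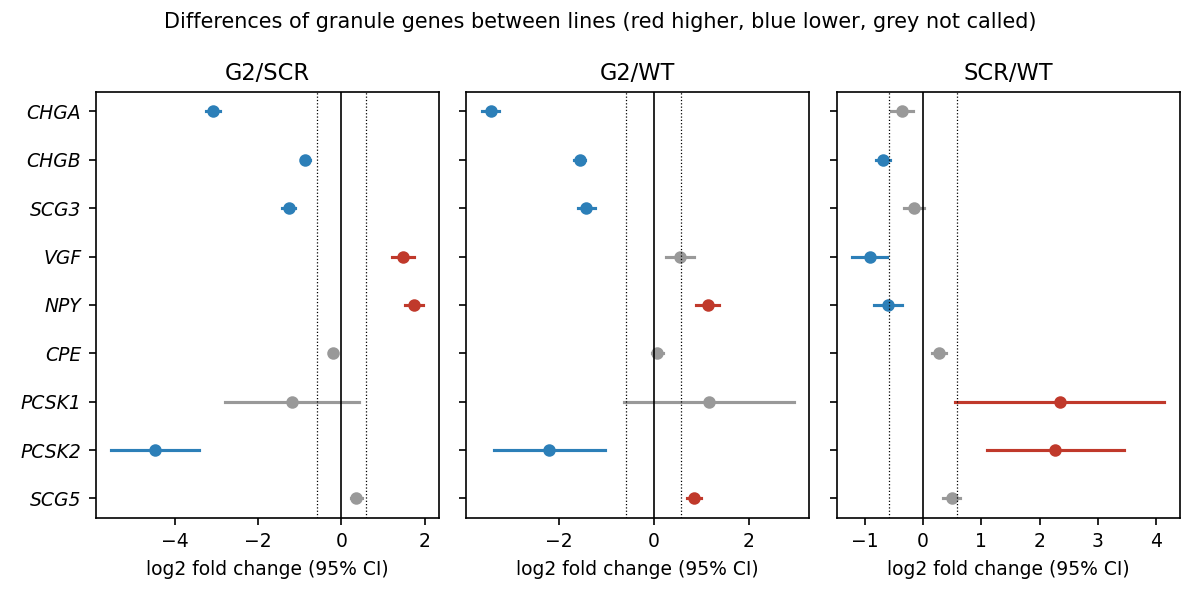
Log2 fold change (horizontal axes, with 95% confidence intervals) of 9 granule genes in G2/SCR, G2/WT and SCR/WT; red is called higher in the first line, blue called lower, grey not called, and dotted lines mark 1.5-fold. PCSK1 and PCSK2 have the widest intervals, and CHGA fell by 3.08 and 3.43 in the G2 comparisons.

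SCR/WT compares the 2 control lines. Of the 9 tested genes, 2 were called higher (PCSK1 and PCSK2, which passed the filter through SCR) and 3 lower (CHGB, NPY and VGF), where 16.3% of all tested genes were called (10.7% higher and 5.63% lower). By the adjusted p 5 were called as well, where 13.8% of all genes were. Their median log2 fold change was -0.15, against 0.01 for all genes. VGF and NPY were lower in SCR than in WT, so each was further from G2 in SCR than in WT.

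Levels of different genes were compared per kb of annotated exon, from GENCODE. NPY led in every line, with 393583 ± 27702 normalized counts per kb in G2 (SD, n = 3), 117818 ± 4881 in SCR (SD, n = 3) and 180857 in WT (n = 2). In G2 the order was NPY, VGF, CPE, CHGB, SCG3, SCG5, CHGA, PCSK1 and PCSK2, with overlapping ranges for SCG3 and SCG5, for SCG5 and CHGA, and for PCSK1 and PCSK2. In SCR, CHGA stood second at 8641 normalized counts per kb, ahead of VGF (7473), CHGB (3641) and CPE (3558), of which the last 2 overlapped. In WT the order was NPY, VGF, CHGA, CHGB, SCG3, CPE, SCG5, PCSK2 and PCSK1, with no overlap between neighbours. CHGA thus moved from near the top of the order in the controls to 1025 normalized counts per kb in G2, beside SCG5. The order depends on the length used: per kb of the longest transcript, CHGA (16849) stood above VGF (14791) and CPE (3549) above SCG3 (3068) in WT, and SCG5 (1923) and CHGA (1562) stood above SCG3 (1155) in G2, while the order in SCR was unchanged. The place of VGF rests on an entry far longer than its exons.

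**Figure D4:**
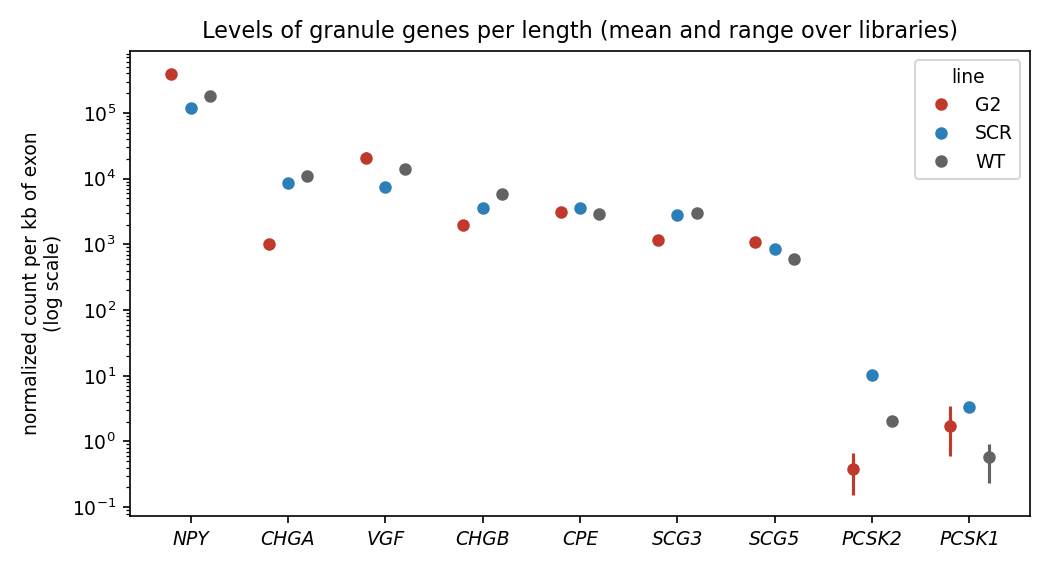
Normalized count per kb of exon (vertical axis, log scale) of 9 granule genes in the G2, SCR and WT lines; points are means and bars the range over libraries. CHGA was at 1025 in G2 and 8641 in SCR, while CPE differed little between lines.

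Within a library, NPY stood higher relative to CHGA in G2 than in either control. The ratio of NPY to CHGA, in normalized counts not divided by length, was 114 ± 13.0 in G2 (SD, n = 3), 4.04 ± 0.377 in SCR (SD, n = 3) and 4.80 ± 0.687 in WT (SD, n = 2). All 10 genes together held 0.668% ± 0.0539 of the normalized counts in G2, 0.309% ± 0.00567 in SCR and 0.375% ± 0.0396 in WT, and NPY was most of that share. Neighbouring genes within 5 Mb were compared by their median. For CHGA the median log2 fold change of 53 neighbours with a mean of at least 100 was -0.12 in G2/SCR, for CHGB -0.09 (55 neighbours), for NPY 0.00 (35 neighbours) and for VGF -0.14 (109 neighbours).

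Of 16 tested enzymes, PCSK1, PCSK2 and CPE included, 4 were higher and 2 lower in both G2 comparisons, where 11.3% and 6.43% of all tested genes were. PAM, which amidates the C terminus of peptides such as NPY, had a mean of 28187 normalized counts in G2, 3943 in SCR and 5781 in WT, a log2 fold change of 2.84 (SE 0.05, adjusted p = 2.8e-12) in G2/SCR and 2.29 (SE 0.05) in G2/WT. FURIN, the convertase of the constitutive pathway, rose by 1.12 and 1.44 in the same comparisons. CTSB, a lysosomal cysteine protease, rose by 1.06 and 0.97. RNPEP (0.60 and 0.73) and the constitutive convertase PCSK6 (-0.99 and -1.46) were the other 2 called and were named after their values were seen.

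Of 6 tested inhibitors, 3 were higher and 1 lower in G2/SCR, and 2 higher and 1 lower in G2/WT, where 15.1% and 11.8%, and 17.7% and 12.2%, of all genes were. CST3 (0.82 in G2/SCR) and RARRES1 (0.97) were among the higher ones there, named after their values were seen, and in G2/WT neither was called (0.54 and 0.56). PCSK1N (proSAAS, an inhibitor of PCSK1) fell by 1.34 on the log2 scale in G2/SCR (adjusted p = 0.00028) and by 1.05 in G2/WT (adjusted p = 0.0032). Of 11 genes of granule cargo and chaperones, 10 were tested, 3 were higher and 5 lower in each G2 comparison, beside the same shares of all genes, and 7 of these 10 are members. DBH, the granule enzyme that makes noradrenaline, had a mean of 15234 in G2, 50905 in SCR and 61145 in WT (log2 fold change -1.74 in G2/SCR, and 95% CI -2.12 to -1.88 in G2/WT). NUCB2, the precursor of nesfatin, rose by 1.36 and 0.80.

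Genes of the granule membrane, of granule formation and of exocytosis changed in both directions. Of 35 tested, 7 were higher and 14 lower in G2/SCR (15.1% and 11.8% of all genes) and 11 higher and 10 lower in G2/WT (17.7% and 12.2%), with medians of -0.29 and -0.14, where all genes had -0.01 and 0.00. SNAP25, the SNARE protein of the plasma membrane, fell by 1.62 and 1.25 on the log2 scale. Its partner STX1A fell by 1.22 and 1.14, PTPRN2, a granule membrane phosphatase, fell by 1.31 and 1.29, and the calcium sensor SYT5 fell by 1.84 and 1.19. Named after their values were seen, SYTL4 rose by 2.37 and 2.08 and RAB27A by 1.27 and 0.90, whereas RAB3A was lower in G2/SCR (-1.21) and RAB27B was not called there (0.01). Against WT, the G2 mean of RAB3A was 1.30-fold lower, under the 1.5-fold threshold, and that of RAB27B 2.27-fold higher.

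Other peptide precursors included NTS and PTHLH among those higher in G2. Of 38 listed, 21 passed the filter, 8 were higher and 3 lower in G2/SCR (15.1% and 11.8% of all genes), and 4 higher and 5 lower in G2/WT (17.7% and 12.2%). NTS (neurotensin) had means of 2349 in G2, 224 in SCR and 629 in WT, a log2 fold change of 3.40 (adjusted p = 1.4e-09) and 1.91 (adjusted p = 6.7e-07). PTHLH, which encodes a parathyroid hormone-related peptide, rose by 4.46 and 5.60. Its means were 482 in G2, 21.9 in SCR and 11.8 in WT, the last near the floor of 10.1, so the size of the rise is uncertain. POMC, whose product is cut by both convertases, had a mean of 64.3 in G2 and 10.7 in SCR and was at 0 in both WT libraries, which makes it at least 6.39-fold higher in G2 than in WT. POMC and CALCA (means of 57.7 in G2, 6.20 in SCR and 1.86 in WT) passed the filter only through their G2 libraries. Being higher in G2 was thus part of their being tested, and their places among the higher genes are a description only. ADM, a vasodilator peptide, fell by 1.56 and 1.82. Summed over the list, levels were 33997 to 34674 in G2, 28793 to 30095 in SCR and 52769 to 63783 in WT, so G2 lay above SCR and below WT. The list's NPB is counted in 1 entry with ANAPC11, a subunit of a cell cycle ubiquitin ligase, and without that entry the sums were 22871 to 23124, 19243 to 20173 and 41136 to 48619.

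Of the NPY receptors only NPY2R was expressed enough to test. It fell by 1.18 in G2/SCR (SE 0.12, adjusted p = 4.1e-06) and by 1.04 in G2/WT (SE 0.13, adjusted p = 3.1e-05), from means of 1282 in SCR and 1161 in WT to 564 in G2. NPY5R and NPY6R were listed at 0 in every library, and NPY1R and NPY4R had means over all 8 libraries of 1.88 and 6.74, under the filter. Among enzymes that trim NPY, FAP had a mean of 468 in G2 and 34.7 in SCR and was at the floor in WT, at least 46.5-fold higher in G2 than in WT. XPNPEP1 (-0.12 and -0.22) and PREP (-0.30 and -0.23) were not called, and XPNPEP2 was called in G2/WT alone (1.39, against 0.42 in G2/SCR); whether those 2 changes differ was not tested.

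Of 19 tested regulators linked to granule genes, 5 were higher and 6 lower in G2/SCR (15.1% and 11.8% of all genes), and 4 higher and 6 lower in G2/WT (17.7% and 12.2%). CREM, whose proteins bind the element shown above for CHGA, PCSK1 and VGF, rose by 1.26 (SE 0.06, adjusted p = 6.6e-09) and 1.42 (SE 0.07, adjusted p = 7.1e-09). EGR1, an immediate early factor, had a G2 mean 6.50-fold above that of SCR and 9.62-fold above that of WT. The sympathetic lineage factors ISL1 and TFAP2B fell, by 1.39 and 1.62 and by 1.12 and 0.65. REST, a repressor of neuronal genes, was called higher in both (0.74 and 0.91), and is named after its values were seen.

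**Figure D5:**
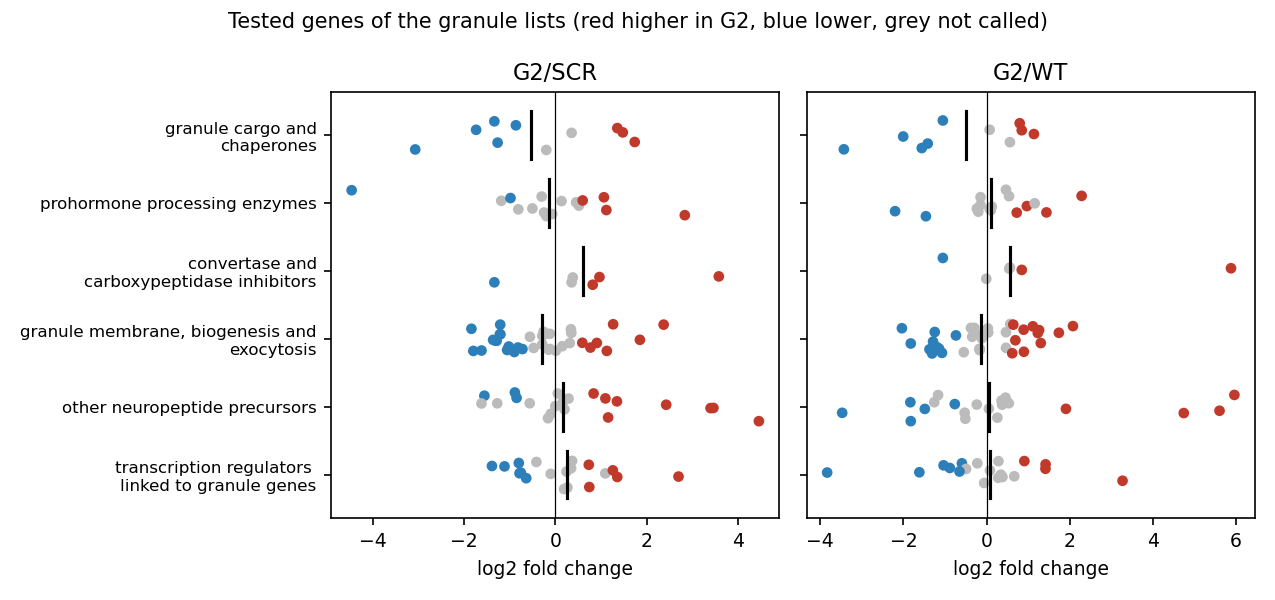
Log2 fold change (horizontal axes) of each tested gene of 6 granule lists in G2/SCR and G2/WT; each point is a gene, red called higher in G2, blue called lower, grey not called, and black bars mark the median. Genes of the membrane and exocytosis list spread to both sides, 7 higher and 14 lower in G2/SCR.

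Markers of other cell types summed to low normalized counts in every library. Of 14 glial, melanocyte, epithelial and leukocyte markers 8 were tested, 1 was higher and 2 lower in G2/SCR, and their sum was 516 to 581 normalized counts in G2, 790 to 971 in SCR and 786 to 868 in WT. S100B fell by 1.58 and 1.41, while TYR and PECAM1 were at 0. Of the adrenergic markers, GATA2 fell by 0.80 and 1.03 and HAND2 by 0.64 and 0.59. Of the mesenchymal markers, VIM rose by 1.33 and 1.86, COL1A1 by 2.60 and 2.86, YAP1 by 2.97 and 5.80 and CD44 by 2.27 and 3.36.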

How the data were processed

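The authors prepared stranded libraries of polyadenylated RNA, aligned the read pairs to hg38 by STAR, assigned them to FAST DB genes by featureCounts (Subread 1.5.0, per the submitters' processing notes) and divided the counts by DESeq2 size factors. The strand setting of the counting is not given in the sources used here. The deposited table holds the resulting signal, 1 normalized count for each gene in each library. Dividing by each library's smallest step gave whole numbers for 100% of values within a tolerance of 0.05; the step of WT replicate 2 is too near 1 to check. Between 71.3% and 75.6% of small recovered counts were multiples of 3, and the floor of a line was set at 9 counts in its highest library. Floors cover counting error only, and the 95% intervals of fold changes reflect the spread between libraries.

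limma 3.58.1 in R 4.3.3 was fitted to log2(normalized count + 1) over all 8 libraries with a mean per line and a trend on the mean, for 18947 genes averaging 10 normalized counts or more. Fold changes are on that scale, which can understate or overstate those of low genes, and adjusted p-values are Benjamini-Hochberg over all these genes. The fit was tested on simulated data. Libraries were grouped by their titles. DESeq2 1.42.0 and edgeR 4.0.16 on recovered counts were alternatives for G2/SCR only. The other alternatives were TMM on recovered counts, same-total scaling, other filters, pseudocounts and thresholds, a replicate block and each library left out. All members are named, and of each list up to 4 genes called in the same direction in G2/SCR and G2/WT, by the smallest p in G2/SCR, plus every tested gene of the NPY receptor list; 2 genes under this rule are not reported here. The members and lists were chosen with earlier results of these data known. Exon lengths came from GENCODE, promoters from RefSeq.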

Additional observations from a re-analysis of the deposited data

How the results depend on the processing

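Among the members' fold changes under the alternatives, 508 kept their direction and their side of the threshold, 10 lost the call, 6 gained it and 1 reversed. The calls of CHGA, SCG3, PCSK2, NPY and VGF in G2/SCR held under every alternative that tested them (PCSK1 and PCSK2 drop out at a mean of at least 100); CHGB there (-0.87), and SCG5 in G2/WT (0.85), fall short of 2-fold. The members called in SCR/WT numbered 5, but 3 with a mean of at least 100 and 2 at a 2-fold threshold, and 3 to 5 when 1 library was left out, the lowest without WT replicate 1. Scaling all libraries to the same total moved the median of all genes to -0.10 in G2/SCR, 0.19 in G2/WT and 0.29 in SCR/WT, and the share of calls that were higher from 56.2% to 47.4%, from 59.3% to 75.8% and from 65.6% to 90.7%. Under it these SCR/WT changes reversed: SCG3 (0.13), PRPF40B (0.16), DBH (0.012), CTSB (0.18), ADM (0.013), XPNPEP1 (0.17), ISL1 (0.054) and GATA2 (0.047). Relative to its shift of 0.29, each stays below the median gene. CHGB (-0.41) and NPY (-0.32) then lost their SCR/WT calls, and VGF in G2/WT (0.75) gained one. Leaving out a library turned 2 SCR/WT changes, which ranged from -0.23 to 0.0069 for PRPF40B and -0.022 to 0.60 for PCSK1N. With a pseudocount of 10 in place of 1, the fitted change of PCSK2 in G2/WT was -0.96. Per kb of the longest transcript in place of all exons, mean levels over the 8 libraries were 6471 for CHGB, 1553 for SCG5 and 3901 for CPE, and CHGA went from 6390 to 9734. A change of length scales every library of a gene alike, so the spread over the libraries is no measure of it. What causes the changes under the other alternatives was not tested.

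Replicate numbers do not pair the libraries: correlations of deviations between libraries with the same number ran from -0.03 to 0.05. A replicate block left the members' calls as they were, and all-gene calls in G2/SCR at 5059 by title number. With the block by library name, PCSK1N (-0.020) reversed in SCR/WT, as did the PTPRN2 log2 fold change in SCR/WT (-0.0060). PCSK1 and PCSK2, at a few fragments per library, are limited by depth, and VGF by its gene model.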
